A study of Mus musculus with 6 samples.

Results

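The mitosis, kinetochore and cytokinesis genes are a set of 48 genes whose products carry a cell from the start of mitosis to the separation of the daughter cells. They were measured in primary cultures of articular chondrocytes, the cells of joint cartilage, taken from the femoral condyles and tibial plateaus of wild-type ICR mice that were 5 days old. The arrays comprised 3 of untreated cells and 3 of cells harvested 24 h after treatment with interleukin-1β (IL-1β), a proinflammatory cytokine used to model cartilage breakdown in osteoarthritis. All cells were grown as a monolayer with serum. The labels call the 3 arrays of a group biological replicates but do not say which animals or cultures each one holds, so p-values measure the spread between these samples only. Members were the probe sets of the deposited table (Affymetrix Mouse Gene 2.0 ST arrays) that the platform's annotation assigns to 1 listed gene, and 46 of the 48 genes, of 22180 genes in all, had one. Ccnb1, which encodes cyclin B1, had no such probe set, and the condensin gene Ncapg shares its probe set with a neighbouring gene, so neither is reported.

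Mitosis is driven by cyclin-dependent kinase CDK1 bound to cyclins A and B. Chromosomes condense, attach through kinetochores to the microtubules of the spindle and are held by the spindle checkpoint until every kinetochore is attached. The anaphase-promoting complex then destroys securin and the cyclins, the chromatids part and the cell divides by cytokinesis. Transcripts of these genes accumulate in late S and G2 phase and are low in resting cells. Many of their promoters carry a short element, the cell cycle genes homology region (CHR), downstream of CCAAT boxes. In resting cells the CHR is bound by the DREAM complex, a repressor built on the MuvB core, and in dividing cells by MuvB with B-MYB and FOXM1, while CCAAT boxes are bound by NF-Y. Chondrocytes divide in young growing cartilage and in monolayer culture, and rarely in adult cartilage.

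The promoters show a sequence feature that the choice of genes did not use. The RefSeq promoter table (GRCm38.p6, from 250 bases before to 50 bases after each transcription start) held 37 of the 46 measured genes, with 41 promoters because some genes have several starts. Promoters were searched on both strands for the CHR letters TTTGAA and TTCGAA and for CCAAT. A CHR match was found in 31 of these 41 promoters (75.6%), against 19.2% of the 32851 promoters in the table. A CCAAT match was found in 32 (78.0%), against 37.4% of all promoters, and both in 27 (65.9%), against 7.52%. CHR and CCAAT matches overlapped in 1 of the members' promoters. In a window chosen after the positions were seen, 28 promoters (68.3%) had a CHR match whose first base lay within 50 bases of the start, against 5.31% of all promoters. In most of these 28 that match began after the start, as in Bub1 (14 bases) and Plk1 (30 bases). These are matches of letters, not measured binding sites, and they were given no test. The 5 stretches below are the 100 bases upstream of the start. They cover the members whose single start equals the annotated start of the gene and whose CHR match lies wholly inside those 100 bases. The more common layout, with the match after the start, is thus not among them. The stretches are shown because 4 of the 5 hold CCAAT matches beside the element. They are read 5′ to 3′ on the gene's strand, and capitals mark CHR matches (TTTGAA, or TTCAAA where the element is on the other strand) and CCAAT matches (CCAAT, or ATTGG on the other strand).
Cdk1 (chr10:69352913-69353012, minus strand): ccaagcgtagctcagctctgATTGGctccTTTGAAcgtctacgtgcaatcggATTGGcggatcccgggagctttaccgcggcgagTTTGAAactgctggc
Cdc20 (chr4:118437344-118437443, minus strand): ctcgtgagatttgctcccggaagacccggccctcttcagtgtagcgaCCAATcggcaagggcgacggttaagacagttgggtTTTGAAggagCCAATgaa
Ube2c (chr2:164769829-164769928, plus strand): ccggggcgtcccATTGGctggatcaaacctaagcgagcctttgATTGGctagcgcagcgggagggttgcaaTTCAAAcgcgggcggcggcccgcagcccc
Kif11 (chr19:37376282-37376381, plus strand): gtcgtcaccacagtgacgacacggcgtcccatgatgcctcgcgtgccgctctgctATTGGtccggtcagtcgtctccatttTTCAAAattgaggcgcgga
Kif15 (chr9:122950981-122951080, plus strand): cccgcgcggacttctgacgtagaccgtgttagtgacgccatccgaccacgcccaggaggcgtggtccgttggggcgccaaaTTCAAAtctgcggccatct
In Cdk1, the CHR match nearest the start began 33 bases after the nearest upstream CCAAT match, in Ube2c 28 bases and in Kif11 26 bases after it. In Cdc20 the CHR match lay between 2 CCAAT matches, which began 53 and 8 bases before the start, against 18 bases for the CHR match. Kif15 had no CCAAT match in this stretch.

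**Figure D1:**
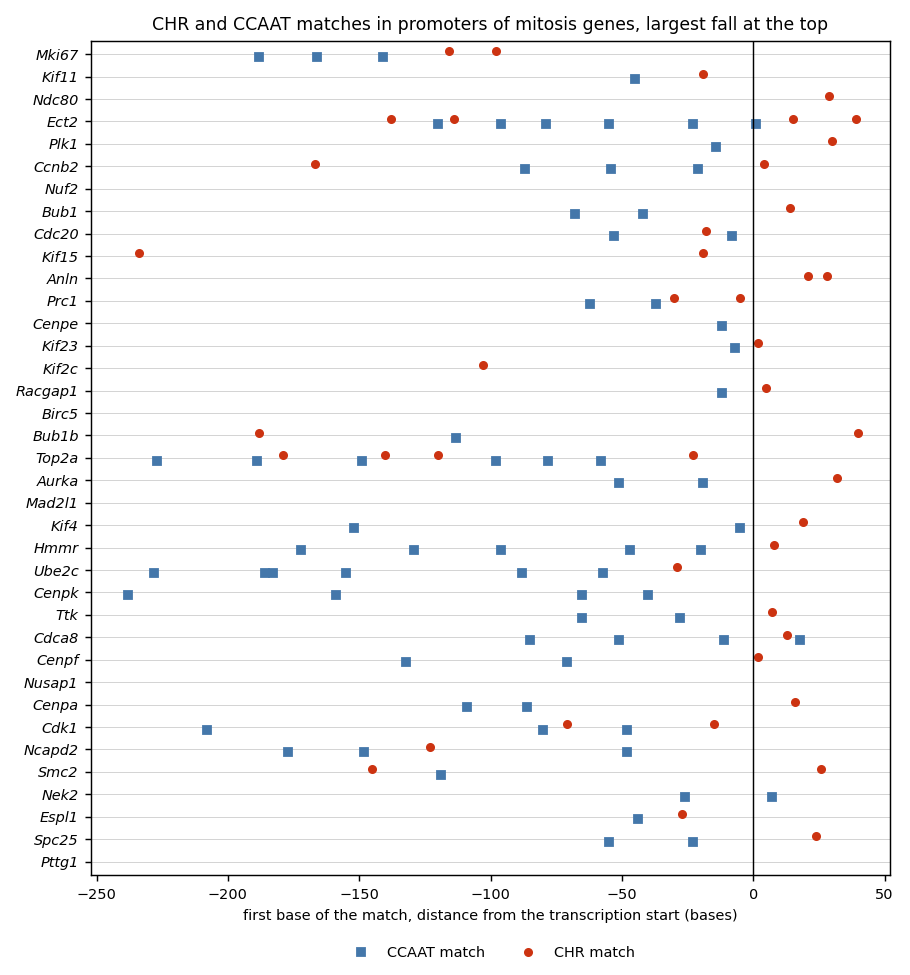
Each row is 1 of 37 mitosis genes, ordered by its change with IL-1β with the largest fall at the top, and the horizontal axis gives the distance in bases of the first base of each CHR match (circles) or CCAAT match (squares) from the transcription start, with all starts of a gene drawn in its row. CHR matches gather around the start in 28 of 41 promoters, and Birc5, Mad2l1, Nuf2, Nusap1 and Pttg1 have no match of either kind.

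All 46 measured mitosis genes fell in chondrocytes treated with IL-1β, where 8.88% of all 22180 genes fell (limma, adjusted p under 0.05). No member rose, where 8.32% of all genes did, and the count of higher members was 0 also for unadjusted p-values under 0.05 and for the methods' t-test. The median log2 fold change of the members was -1.17, which is 2.26-fold lower, and that of all genes was -0.02. Falls ranged from 1.35-fold for Pttg1, which encodes securin, to 3.39-fold for Ccna2, which encodes cyclin A2. In every one of the 46 genes, all 3 treated arrays lay below all 3 untreated arrays, as they did in 18.0% of all genes. The gap between the lowest untreated and the highest treated array ran from 0.21 (Pttg1) to 1.52 (Ccna2) on the log2 scale. By more than 1 on the log2 scale, the limit used in the study, fell 29 members, where 1.45% of all genes did. These 29 are 63.0% of the measured members and 9.03% of the 321 genes that fell beyond the limit. Of the other 17 members, 11 had a log2 fold change between -1 and -0.8 and 6 a smaller fall. The methods' t-test with Benjamini-Hochberg adjustment called 40 of the 46 lower. In RNA of whole cultures, fewer dividing cells and less of each transcript per dividing cell cannot be told apart.

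**Figure D2:**
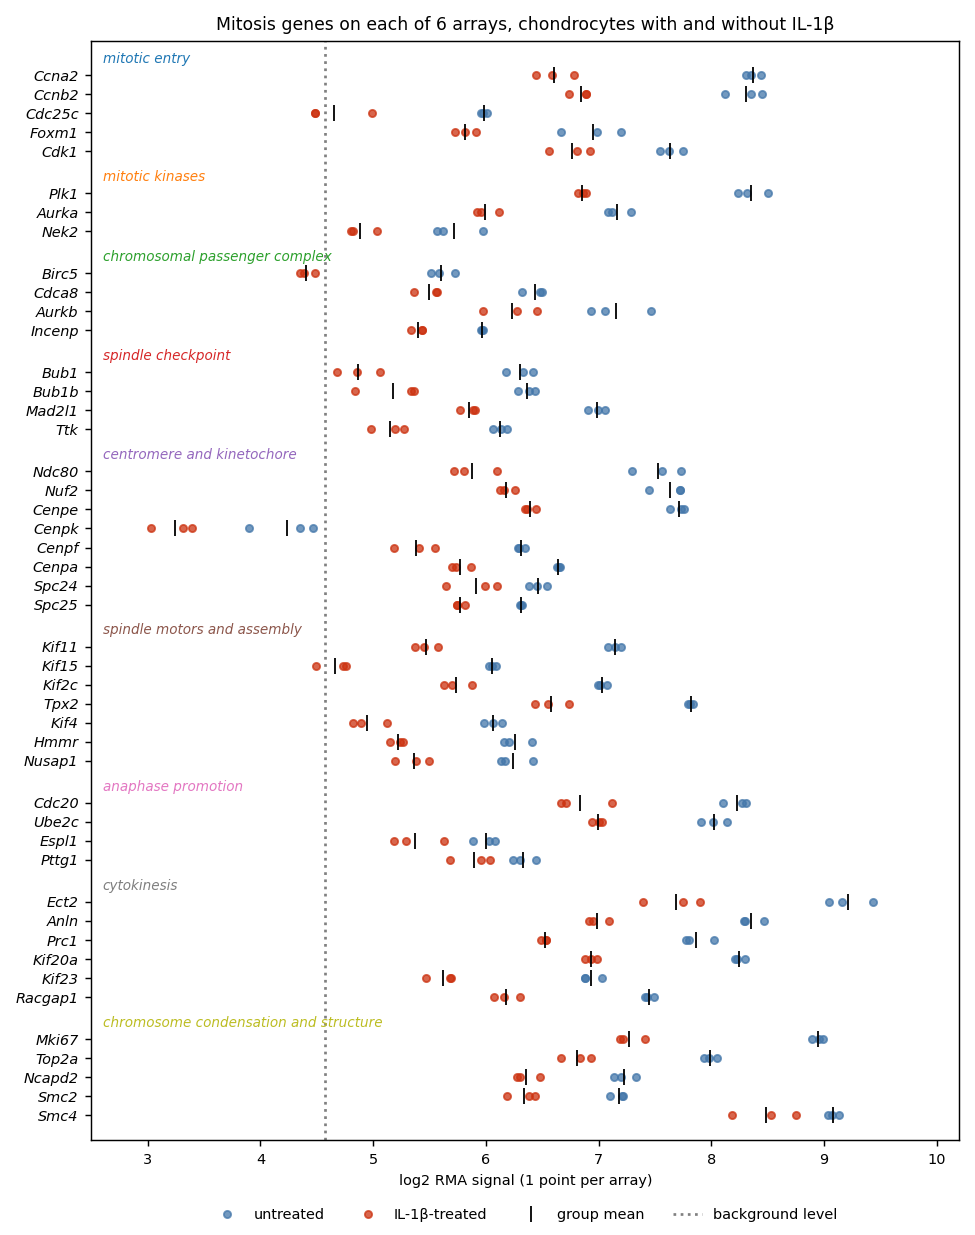
Log2 RMA signal (horizontal axis) of each of 46 mitosis genes (rows, grouped by role), with 1 point for each of 3 untreated and 3 IL-1β-treated arrays, a bar for each group mean and a dotted line at the background level of 4.57. In each row the treated arrays lie to the left of the untreated ones, and Cenpk lies wholly below the background level.

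All genes of entry into mitosis that were measured fell. Of the 5 measured, 4 fell beyond the limit. The log2 signals of Ccna2 were 8.35, 8.44 and 8.31 on the untreated arrays and 6.45, 6.78 and 6.58 on the treated arrays (log2 fold change -1.76, standard error 0.11, adjusted p = 1.62e-05 from limma). Those of Ccnb2, which encodes the CDK1 partner cyclin B2, were 8.12, 8.35 and 8.45 without IL-1β and 6.74, 6.89 and 6.89 with it (log2 fold change -1.46, standard error 0.11, adjusted p = 4.45e-05 from limma). Both cyclin genes thus held well separated groups. Cdc25c, whose phosphatase activates CDK1, fell 2.51-fold, and Foxm1, which encodes a transcription factor for G2 and mitosis genes, 2.19-fold. Cdk1 itself fell by 0.87 on the log2 scale, with a 95% confidence interval from -1.14 to -0.60. That interval lies apart from those of Ccna2 (-2.01 to -1.51) and Ccnb2 (-1.72 to -1.21). These genes were set side by side after their values were seen, and the differences between their changes were not tested.

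The mitotic kinase genes fell as well. Plk1 encodes polo-like kinase 1, which acts from mitotic entry to cytokinesis. Its log2 signals were 8.24, 8.50 and 8.31 without IL-1β and 6.86, 6.89 and 6.82 with it, a 2.82-fold fall (adjusted p = 2.39e-05 from limma) with treated arrays that spanned less than 0.1 on the log2 scale. Aurka, the gene of the centrosome and spindle kinase Aurora A, had 7.12, 7.29 and 7.08 without and 5.95, 6.11 and 5.92 with IL-1β, a 2.25-fold fall (adjusted p = 9.49e-05 from limma). Nek2, whose kinase acts in separating the centrosomes, fell by 0.83 on the log2 scale, the smallest change of the 3.

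In the chromosomal passenger complex, which corrects faulty attachments and later moves to the spindle midzone, all 4 genes fell. Birc5, the survivin gene, had log2 signals of 5.51, 5.58 and 5.73 without IL-1β and 4.49, 4.39 and 4.35 with it (log2 fold change -1.20, adjusted p = 6.63e-05 from limma). Its treated mean was under the background level of 4.57, so it was at least 2.05-fold lower, against that level. Cdca8, the borealin gene, had 6.32, 6.50 and 6.48 without and 5.36, 5.56 and 5.57 with IL-1β (log2 fold change -0.94, adjusted p = 3.21e-04 from limma). Aurkb, which encodes the kinase of the complex, had a log2 fold change of -0.92 with the largest standard error among the members, 0.17,, and did not pass the methods' t-test (adjusted p = 0.0764, with 6.14e-04 to 0.0764 over 17 alternatives). Incenp, the scaffold gene, fell by 0.57 on the log2 scale.

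The spindle checkpoint genes, which delay anaphase until every kinetochore is attached, all fell, 3 of the 4 beyond the limit. Bub1, a checkpoint kinase gene, had log2 signals of 6.18, 6.33 and 6.41 without IL-1β and 4.68, 4.86 and 5.06 with it, a 2.71-fold fall (adjusted p = 7.66e-05 from limma). Bub1b, which encodes BUBR1, had 6.43, 6.39 and 6.28 without and 5.33, 5.36 and 4.84 with IL-1β, so that treated replicate 3 was lower than the others (log2 fold change -1.19, standard error 0.15, adjusted p = 5.87e-04 from limma). Mad2l1, the MAD2 gene, and Ttk, which encodes the kinase MPS1, had log2 fold changes of -1.13 and -0.98.

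Centromere and kinetochore genes showed a wide range, from -1.66 to -0.54 on the log2 scale with a median of -0.96, and all 8 fell. The 4 subunits of the NDC80 complex, which holds the ends of spindle microtubules, are among them. Ndc80 had log2 signals of 7.29, 7.73 and 7.56 without IL-1β and 5.72, 6.09 and 5.81 with it (log2 fold change -1.66, 95% confidence interval from -1.98 to -1.33, adjusted p = 8.65e-05 from limma). Nuf2, its partner at the microtubule end of the complex, had 7.45, 7.72 and 7.72 without and 6.25, 6.16 and 6.12 with IL-1β (log2 fold change -1.45, interval from -1.70 to -1.21, adjusted p = 3.84e-05 from limma). Spc24 and Spc25, the subunits at the chromosome end, had log2 fold changes of -0.55 and -0.54, with intervals from -0.84 to -0.25 and from -0.74 to -0.35. The log2 signals of Spc25 were 6.32, 6.31 and 6.31 without and 5.81, 5.75 and 5.75 with IL-1β, the smallest spread of these 4 genes. The contrast was picked after the values were seen and was not tested. Spc24 did not pass without untreated replicate 1 (adjusted p = 0.0719) or with the methods' t-test (adjusted p = 0.103). Nor did it pass limma with every probe set of the array tested (adjusted p = 0.0663). Its adjusted p ranged from 0.00678 to 0.103 over 17 alternatives.

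Of the remaining kinetochore genes, Cenpe, which encodes a kinesin that carries chromosomes to the spindle equator, had a log2 fold change of -1.32 and Cenpf one of -0.93. Cenpa, the gene of the histone H3 variant that marks centromeres, fell by 0.87 on the log2 scale, with untreated arrays between 6.63 and 6.66 and treated arrays between 5.70 and 5.87. Cenpk, a gene of the inner kinetochore, was the only member with both means under the background level, so its difference of -0.99 is given with no fold. It did not pass the methods' t-test (adjusted p = 0.0595, with 2.91e-04 to 0.0595 over 15 alternatives).

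Genes of spindle motors and spindle assembly fell, 6 of the 7 beyond the limit. Kif11 encodes the kinesin Eg5, which pushes the spindle poles apart. Its log2 signals were 7.15, 7.08 and 7.20 without IL-1β and 5.46, 5.38 and 5.58 with it, a 3.19-fold fall (adjusted p = 1.01e-05 from limma). Kif15, whose kinesin acts beside Eg5, had 6.09, 6.06 and 6.03 without and 4.73, 4.50 and 4.76 with IL-1β, a 2.63-fold fall (adjusted p = 3.51e-05 from limma). In both genes the groups were more than 1.2 apart on the log2 scale, measured between the nearest arrays. Kif2c, which encodes a microtubule depolymerase, Tpx2, whose product activates Aurora A, and the chromokinesin gene Kif4 had log2 fold changes of -1.29, -1.24 and -1.12. Hmmr, whose product binds the spindle and is also known as a hyaluronan receptor, had one of -1.04, and Nusap1, a microtubule-bundling protein gene, one of -0.88.

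All 4 anaphase genes fell, Cdc20 and Ube2c beyond the limit. Cdc20, the activator gene, had log2 signals of 8.10, 8.31 and 8.27 without IL-1β and 6.71, 7.12 and 6.67 with it, a 2.63-fold fall (adjusted p = 1.65e-04 from limma). Ube2c, which encodes the ubiquitin-conjugating enzyme of the complex, had 7.91, 8.01 and 8.14 without and 6.94, 7.01 and 7.03 with IL-1β, a 2.04-fold fall (adjusted p = 1.42e-04 from limma). Espl1, the gene of separase, which cuts cohesin, fell by 0.63 on the log2 scale (interval from -0.93 to -0.33). It did not pass the methods' t-test (adjusted p = 0.0774, with 9.31e-04 to 0.0774 over 17 alternatives). Pttg1, which encodes securin, the inhibitor of separase, had 6.44, 6.31 and 6.24 without and 5.96, 6.03 and 5.68 with IL-1β (log2 fold change -0.44, interval from -0.71 to -0.17, adjusted p = 0.0349 from limma). The groups of Pttg1 did not overlap, but it failed to pass when any 1 array except IL-1β replicate 2 was left out (adjusted p = 0.0653 to 0.117, within 0.0154 to 0.117 over 17 alternatives). Pttg1 also did not pass the methods' t-test (adjusted p = 0.117) or limma with every probe set of the array tested (adjusted p = 0.0986).

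All 6 cytokinesis genes fell beyond the limit, within a narrow range from -1.53 to -1.26. Ect2 encodes the exchange factor that activates RhoA at the division plane. It had log2 signals of 9.04, 9.44 and 9.16 without IL-1β and 7.75, 7.90 and 7.40 with it, a 2.89-fold fall (adjusted p = 1.95e-04 from limma). Anln, which encodes the ring scaffold anillin, had 8.30, 8.47 and 8.29 without and 6.91, 7.09 and 6.95 with IL-1β, a 2.58-fold fall (adjusted p = 3.53e-05 from limma). Kif23 and Racgap1 encode the 2 subunits of centralspindlin and had log2 fold changes of -1.32 and -1.26, with overlapping intervals (-1.55 to -1.08 and -1.49 to -1.04). Prc1, whose product bundles midzone microtubules, and the midzone kinesin gene Kif20a had log2 fold changes of -1.35 and -1.32.

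Genes of chromosome structure all fell, the proliferation marker most. Mki67, whose product Ki-67 coats mitotic chromosomes, had log2 signals of 8.89, 8.99 and 8.96 without IL-1β and 7.19, 7.41 and 7.21 with it, a 3.19-fold fall (adjusted p = 1.20e-05 from limma). Top2a, the gene of topoisomerase II alpha, which untangles sister chromatids, had 7.93, 8.05 and 7.98 without and 6.84, 6.93 and 6.66 with IL-1β, a 2.26-fold fall (adjusted p = 8.88e-05 from limma). The condensin genes Ncapd2, Smc2 and Smc4 fell with log2 fold changes of -0.87, -0.84 and -0.59. Smc4 had 9.07, 9.04 and 9.14 without and 8.53, 8.19 and 8.75 with IL-1β, a treated spread wider than that of most members. It did not pass the methods' t-test (adjusted p = 0.116) or limma with every probe set of the array tested (adjusted p = 0.0681). Nor did it pass without IL-1β replicate 1 (adjusted p = 0.0566), untreated replicate 1 (0.0582) or untreated replicate 3 (0.0707). Its adjusted p ranged from 0.00233 to 0.116 over 17 alternatives.

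**Figure D3:**
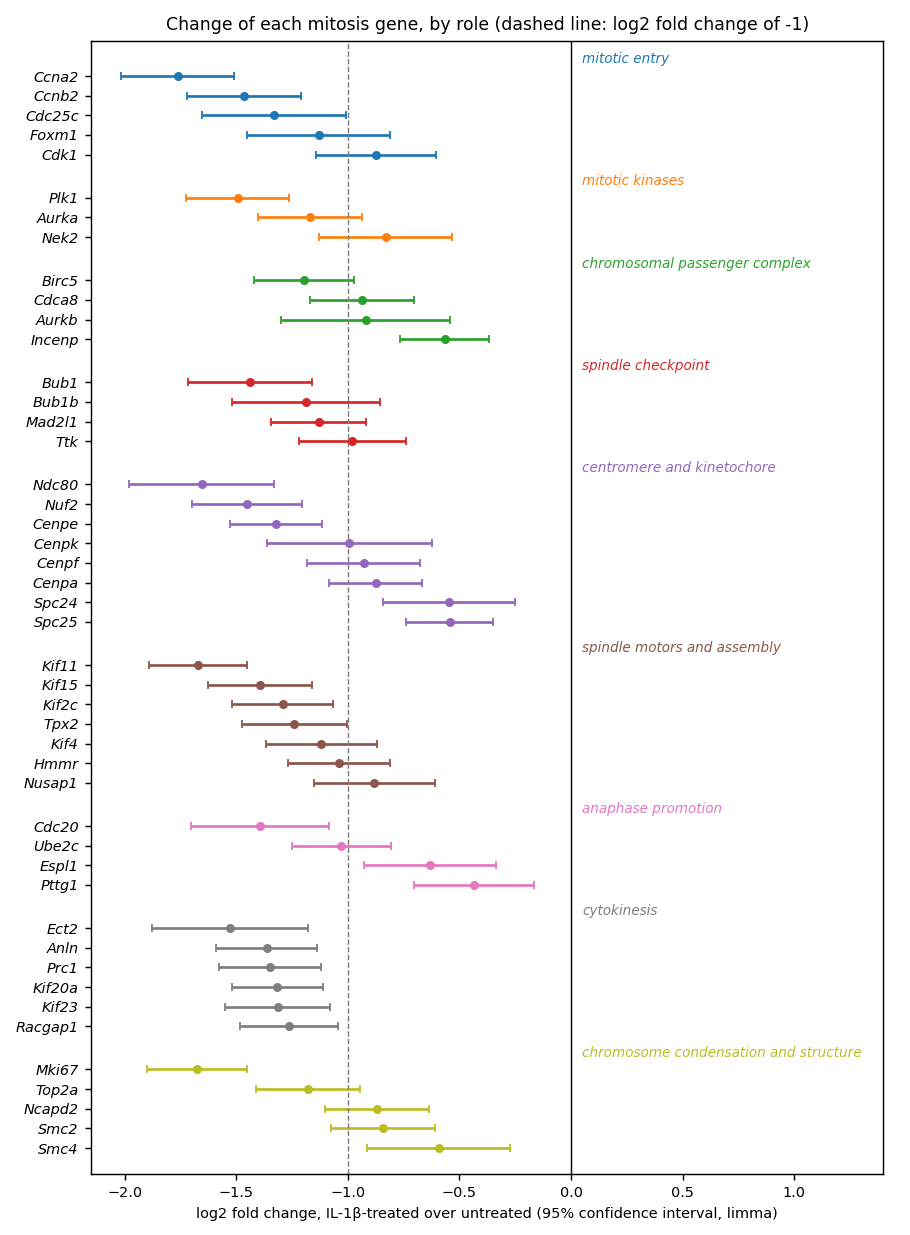
Log2 fold change, IL-1β-treated over untreated (horizontal axis), of each of 46 mitosis genes with its 95% confidence interval from limma, grouped by role, with a dashed line at -1. No interval reaches 0, cytokinesis genes lie close together, and the NDC80 complex splits into Ndc80 and Nuf2 against Spc24 and Spc25.

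The median of the members' log2 signals, each taken relative to the gene's untreated mean, was -1.13, -1.11 and -1.24 on IL-1β replicates 1, 2 and 3, and -0.05, 0.04 and -0.01 on the untreated replicates. Untreated replicate 2 was the highest of its group in 22 of the 46 genes, and IL-1β replicate 2 in 23. IL-1β replicate 3 was the lowest of its group in 20. The standard deviation within a group had a median over the members of 0.09 among untreated and 0.13 among treated arrays, and the treated one was the larger in 29 genes. With 1 array left out in turn, the median log2 fold change lay between -1.21 and -1.14. With replicate 2 of both groups left out, an alternative chosen after seeing the data, all 46 genes still fell and 31 did so beyond the limit.

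Of 94 measured mitosis genes outside the set, 58 fell (61.7%, where 8.88% of all genes fell). Another 2 rose (2.13%, where 8.32% of all genes rose) and 34 did not pass. The median log2 fold change of the 94 was -0.61. The methods' t-test called 46 of them lower. The largest measured log2 fold changes among those that fell were those of Depdc1a (-1.35), the kinase genes Melk (-1.35) and Pbk (-1.30), the spindle genes Spag5 (-1.29) and Ckap2l (-1.28), Sgo1 (-1.23), whose product guards cohesin at centromeres, the kinetochore gene Ska3 (-1.22) and the kinesin gene Kif20b (-1.21). The treated mean of Ska3 was under the background level, so it was at least 2.09-fold lower. Against them, Psrc1, which encodes a microtubule-binding protein of the spindle, rose 2.51-fold, with log2 signals of 5.96, 6.20 and 5.91 without IL-1β and 7.46, 7.22 and 7.37 with it (adjusted p = 8.56e-05 from limma). Gtse1, a gene expressed in G2 and S phase whose product binds microtubules, had 6.01, 6.67 and 6.35 without and 6.86, 7.14 and 7.03 with IL-1β and rose by 0.67 on the log2 scale (adjusted p = 0.0217 from limma). Leaving out IL-1β replicate 2, IL-1β replicate 3, untreated replicate 1 or untreated replicate 3 ended the call of Gtse1 (adjusted p = 0.0568 to 0.0681), within 0.00502 to 0.139 over 17 alternatives, which left 1 gene that rose. Gtse1 also did not pass the methods' t-test (adjusted p = 0.139).

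A further list held 14 measured genes of the MuvB core, B-MYB and the DREAM complex together with E2f7 and E2f8, which encode atypical E2F repressors that are not subunits of these complexes. Of the 14, 6 fell (42.9%, where 8.88% of all genes fell) and 1 rose (7.14%, where 8.32% of all genes rose). The methods' t-test called 4 lower and 0 higher. E2f8 fell by 2.67 on the log2 scale, more than any member. Mybl2, the B-MYB gene, had a log2 fold change of -0.75, the MuvB gene Lin9 one of -0.74, E2f7 one of -0.66 and the pocket protein gene Rbl1 (p107) one of -0.63. Lin9 and E2f7 did not pass the methods' t-test (adjusted p = 0.0937 and 0.0725, within 0.00115 to 0.0937 and 0.00354 to 0.0725 over 17 alternatives). E2f4 (-0.31, adjusted p = 0.0447 from limma) lost its call without each single array in turn (adjusted p = 0.0793 to 0.168) and in the fit paired by a replicate block (adjusted p = 0.056), within 0.0065 to 0.168 over 17 alternatives. Rbl2, which encodes p130, the pocket protein of DREAM in resting cells, had log2 signals of 6.95, 6.73 and 6.99 without IL-1β and 7.44, 7.24 and 7.52 with it, and rose by 0.51 on the log2 scale (adjusted p = 0.0148 from limma). Leaving out IL-1β replicate 1 or IL-1β replicate 3 ended the call of Rbl2 (adjusted p = 0.0633 and 0.0573), within 0.00297 to 0.0724 over 17 alternatives, and then no gene of this list rose.

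DNA replication genes, which act in S phase, also fell, 8 of them beyond the limit. Of 47 measured, 41 fell with limma (87.2%, where 8.88% of all genes fell). None rose (0 also at an unadjusted p under 0.05), where 8.32% of all genes did. The median log2 fold change was -0.66 against -1.17 for the mitosis genes. The methods' t-test called 28 of the 47 lower and 0 higher. Beyond the limit fell 8 of 47 replication genes and 29 of 46 mitosis genes. The difference between these lists was not tested, since genes of a list share their arrays and are not independent. The helicase genes Mcm2 and Mcm6 had log2 fold changes of -1.56 and -1.52.

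**Figure D4:**
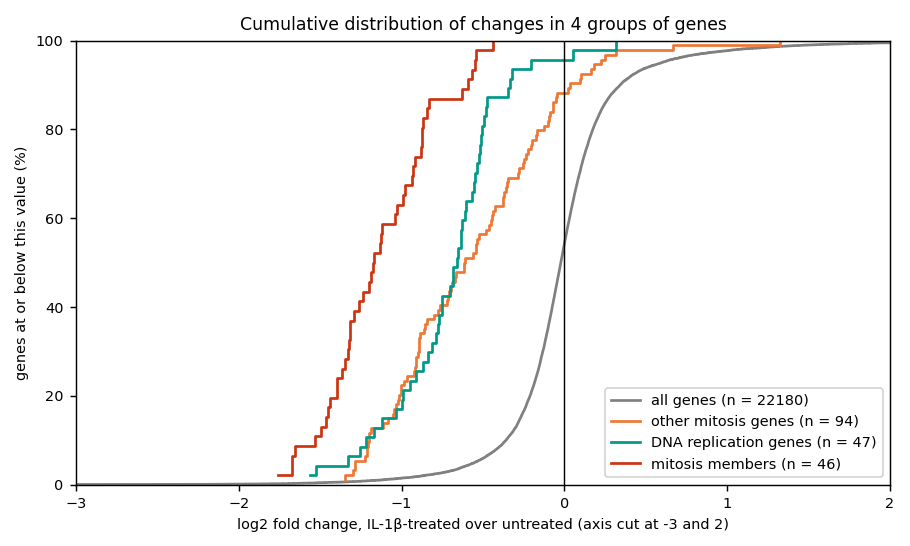
Cumulative share of genes (vertical axis, percent) at or below each log2 fold change, IL-1β-treated over untreated (horizontal axis), for 46 mitosis members, 94 other mitosis genes, 47 DNA replication genes and all 22180 genes. The curve of the members lies furthest to the left, with its median at -1.17, and ends below 0.

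Members with and without a CHR match both fell. Their median log2 fold change was -1.19 among 29 genes with a match (-1.68 to -0.54) and -1.06 among 8 genes without one (-1.45 to -0.44). With a CCAAT match, 28 genes had a median of -1.14, and without one 9 genes had a median of -1.29. All of these genes had passed the test, so these values describe the members and were not tested.

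The cultures carried the markers of their labelled cell type. All 15 measured chondrocyte markers were above the background level in both groups, among them Col2a1, the type II collagen gene, at mean log2 signals of 12.66 without and 12.15 with IL-1β, and 14 of the 15 fell. The summed linear signal of these 15 was 36687 to 39230 on the untreated and 17462 to 19854 on the treated arrays. Of 12 markers of fibroblasts and synoviocytes, 11 were above the background level in both groups, and Postn was under it in both. Of the 12, 6 rose and 2 fell, and the methods' t-test called 5 higher and 1 lower. Their summed linear signal was 15230 to 15973 on the untreated and 17062 to 18577 on the treated arrays. Of 11 markers of macrophages and other leukocytes, Cd68 and Cd14 rose, with a summed signal of 198 to 245 without and 360.2 to 385 with IL-1β, while Ptprc, Adgre1 and Itgam were under the background level in both groups. The methods' t-test called only 1 marker of this list higher. Of 9 muscle and fat markers, Fabp4, a fatty acid binding protein gene, rose by 3.57 on the log2 scale. The other 8 did not pass, among them the fat genes Adipoq, Plin1 and Pparg (log2 fold changes -0.02, -0.10 and 0.04). The summed signal of the list, with Fabp4 in it, was 299 to 352 without and 555 to 623 with IL-1β. Of 9 markers of osteoblasts and osteoclasts, Ibsp, a bone sialoprotein gene, rose and Sp7 and Ctsk fell, with a summed signal of 329 to 409.6 without and 397 to 495 with IL-1β. Of 5 endothelial and blood markers, Tek rose, from a mean log2 signal of 3.82, under the background level, to 4.68, just above it. The other 4 did not pass, and the summed signal of the list was 98.5 to 121 without and 104 to 118 with IL-1β. The methods' t-test called no change in these last 2 lists. The summed signal of the mitosis genes was 7671 to 8422 on untreated and 3444 to 3636 on treated arrays. The part that these markers' sources have in the fall of the mitosis genes was not tested.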

How the data were processed

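RNA of 3 untreated and 3 IL-1β-treated samples of cultured chondrocytes was measured on Affymetrix Mouse Gene 2.0 ST arrays. The paper's methods name more replicates per cell type than the labels. The authors normalized probe signals by RMA within this data set and deposited log2 values, 1 per probe set and array, which were used as deposited (0.909 to 13.04 over 41345 probe sets). Of these, 23521 name 1 gene, 1820 name several and 16004 are not listed by the platform's annotation. Symbols were updated through Entrez IDs in a GRCm38.p6 gene table, in which 23477 were found. The brightest probe set stood for each of 22180 genes, and no member had a second one of its own.

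The IL-1β effect was fitted by limma 3.58.1 (lmFit and eBayes, R 4.3.3) without pairing or a filter on dim genes. P-values were adjusted by Benjamini-Hochberg across the 22180 genes, and a gene passed when its adjusted p was under 0.05. A log2 fold change beyond 1, the limit used in the study, was a second rule. The t-test of the methods was an alternative. An exact permutation test of 3 against 3 cannot go below 0.1 and was not used. The background level, 4.57, was the 95th percentile of the mean signal over 1443 probe sets for chemosensory receptor genes (smell, pheromone and taste). The number of arrays limits the precision. The fit was tested on simulated data.

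Every measured member is reported, with values on every array for the 2 with the largest change in each role and for a few others, Spc25, Pttg1 and Smc4, chosen after their values were seen. Of the other lists, up to 8 genes that fell and 4 that rose were named. The members and gene lists were chosen with earlier results of these data known, so p-values were adjusted over all genes only and no list was tested.

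Arrays with the same replicate number deviated together from their group means across genes, with correlations of 0.101, 0.379 and 0.189 for numbers 1, 2 and 3. All exceed 0.1, the limit set for pairing, although crossed arrays reached 0.226 and the labels do not say what a number stands for. A fit with the number as a replicate block was therefore an alternative.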

Additional observations from a re-analysis of the deposited data

How the results depend on the processing

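The members' fall held in direction for all 46 genes under every alternative run. The count that passed was 40 with the methods' t-test, 43 with every probe set of the table tested, 45 with either filter on dim genes (Cenpk left out), 46 with weighted arrays, a robust variance prior with a trend, a second quantile normalization, median centering, the mean of all probe sets or a replicate block, and 43 to 46 when 1 array was left out. Beyond the fold limit it was 29 to 31 with these settings and 28 to 32 when 1 array was left out. No member rose in any of them. The 6 genes that missed the threshold under some setting were Aurkb, Cenpk, Espl1, Spc24, Smc4 and Pttg1, and the replicate block changed no member's call. The blocked fit called 59 other mitosis genes lower and 41 replication genes lower, and the call it ended among the named genes was that of E2f4. Other mitosis genes that fell numbered 46 with the methods' t-test and 49 with all probe sets tested, against 58, and replication genes 28 and 34, against 41. The count of other mitosis genes that rose was 4 with weighted arrays (Psrc1, Gtse1, Ckap2 and Zwint), 1 with all probe sets tested or the methods' t-test (Psrc1), and 1 to 2 when 1 array was left out. Replication genes that rose numbered 0 to 1 when 1 array was left out, the 1 being Tyms, seen without IL-1β replicate 1. With all probe sets tested, 1300 genes fell and 1264 rose against 1969 and 1846. In that setting the variance prior was refitted and p-values were adjusted over 41345 probe sets, and these effects were not separated. Causes of the shifts were not tested.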
